A study of Homo sapiens with 20 samples.

Results

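The Schlafen family is represented here by 6 genes, SLFN5, SLFN11, SLFN12, SLFN12L, SLFN13 and SLFN14, which lie side by side on chromosome 17. They were chosen by name out of the 57087 genes that could be matched in the deposited files, because SLFN11 was among the strongest rises upon knockdown of Dicer and Ago2. The rise of SLFN11 against wt in those cells is therefore given as a description without a test, and the other family members, as well as SLFN11 in the remaining comparisons, are tested.

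The study asked whether small RNAs cut from tRNAs by Dicer, an RNase III, silence nascent RNA through Ago2. Dicer and Ago2 were knocked down in human embryonic kidney cells, and Drosha was knocked down to judge regulation that depends on microRNAs. Steady-state RNA (mRNA-seq) was measured in 3 wt and 3 shDicer samples, and RNA bound to chromatin (chrRNA-seq), which is enriched in nascent transcripts, in 2 wt, 2 shDicer, 2 shAgo2 and 2 DroshaKD samples. In mRNA-seq, wt samples are labelled HEK293T and shDicer samples HEK293 2B, and both received 3 µg/ml doxycycline for 7 days. For chrRNA-seq all samples are labelled HEK293. There shDicer and shAgo2 are lines with an integrated inducible short hairpin cassette that were kept in 3 µg/ml doxycycline for 72 h, and DroshaKD cells were transfected with plasmids carrying a hairpin against DROSHA, while doxycycline is not stated for wt and DroshaKD. The methods give the wt cells as HEK293T and the shDicer and shAgo2 cells as recombinant HEK293T-REx lines, and they name both kinds of cells for the DROSHA plasmids. None of these samples is labelled as a recombinant line with a control hairpin. Line and knockdown therefore cannot be told apart in shDicer and shAgo2 against wt. Each knockdown of the chrRNA-seq was compared with the same 2 wt samples. Whether samples of a group came from separate cultures is not stated, so the p-values measure only the spread between these samples, which may be technical.

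Schlafen proteins share an N-terminal core that carries endoribonuclease activity in several members, and the longer ones add a helicase-like C-terminal part. SLFN11 binds stalled replication forks and cleaves tRNAs in cells with damaged DNA, which makes it known as a determinant of response to DNA-damaging drugs. Many of the genes respond to interferon in other cells, and SLFN11 is known to be expressed in some cultures of HEK293 origin and nearly absent from HEK293T.

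The targeted genes were read first as a check of the labels. DICER1 had 231.5 to 257.3 CPM (counts scaled to library size) in wt and 80.6 to 94.4 in shDicer mRNA, and fell by 1.49 on the log2 scale (edgeR adjusted p = 1.28e-07). On chromatin it had 119.1 and 124.4 CPM in wt, 107.2 and 108.4 in shDicer and 203.6 and 214.2 in shAgo2 samples. It thus did not pass in shDicer chromatin (−0.18, adjusted p = 0.166) and was 0.78 higher in shAgo2 (adjusted p = 3.59e-05). AGO2 had 239.8 and 255.0 CPM in wt and 162.5 and 159.6 in shAgo2 chromatin and fell by 0.62 (adjusted p = 9.29e-05). DROSHA had 145.9 and 153.3 CPM in wt and 166.1 and 147.8 in the libraries labelled DroshaKD, so its RNA was not lower there (0.07, adjusted p = 0.697). For shDicer chromatin and DroshaKD the group names are therefore those of the labels. The study itself reports knockdown of Dicer, Drosha and Ago2 by western blot. It also reports qRT-PCR of their steady-state transcripts in the samples used for chrRNA-seq. Neither was analysed here. Total estimated counts were 10216430 to 17215978 in mRNA-seq and 17484067 to 21553760 in chrRNA-seq.

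On GRCh38, SLFN5 occupies positions 35243071 to 35273655 of chromosome 17 on the plus strand. The other members follow on the minus strand, SLFN11 from 35350305 to 35373701, SLFN12 from 35410922 to 35433283, SLFN13 from 35435096 to 35448837, SLFN12L from 35464249 to 35537678 and SLFN14 from 35543985 to 35560819. RefSeq promoters, taken as 250 bases before and 50 after the start on GRCh38.p14, matched 3 of the 6 members, SLFN11, SLFN12 and SLFN12L. They are shown because these neighbours span the family's values in shDicer mRNA (log2 fold changes of 10.51, 6.89 and 0.27). They were searched on both strands for the interferon-stimulated response element core (GAAA, 2 bases of any kind, GAAA), the STAT site TTCNNNGAA and the ETS core CCGGAA. Capitals mark every match in the minus-strand windows chr17:35373572-35373871 of SLFN11, chr17:35433125-35433424 of SLFN12 and chr17:35537629-35537928 of SLFN12L, each read 5′ to 3′ along the gene.
SLFN11: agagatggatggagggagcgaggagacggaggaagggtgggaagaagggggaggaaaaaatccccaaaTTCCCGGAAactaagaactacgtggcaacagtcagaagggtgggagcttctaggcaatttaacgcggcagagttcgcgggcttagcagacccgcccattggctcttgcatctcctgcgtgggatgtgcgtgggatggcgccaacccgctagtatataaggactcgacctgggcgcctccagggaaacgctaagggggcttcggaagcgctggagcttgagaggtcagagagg
SLFN12: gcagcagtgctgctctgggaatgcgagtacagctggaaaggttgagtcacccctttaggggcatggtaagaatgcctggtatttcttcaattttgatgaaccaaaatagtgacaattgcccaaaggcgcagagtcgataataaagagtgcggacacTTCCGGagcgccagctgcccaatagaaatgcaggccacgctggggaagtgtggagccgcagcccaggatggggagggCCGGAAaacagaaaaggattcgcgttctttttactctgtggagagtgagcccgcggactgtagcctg
SLFN12L: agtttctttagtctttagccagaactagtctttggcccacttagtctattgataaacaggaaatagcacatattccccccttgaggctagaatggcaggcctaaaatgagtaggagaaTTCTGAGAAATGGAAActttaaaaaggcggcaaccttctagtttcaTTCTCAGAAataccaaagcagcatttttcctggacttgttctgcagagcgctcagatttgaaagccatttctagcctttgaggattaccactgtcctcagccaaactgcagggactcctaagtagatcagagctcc
In SLFN11 the STAT pattern starts 182 bases before the start and overlaps an ETS core 179 bases before it. SLFN12 holds 2 ETS cores, 94 and 17 bases before the start. In SLFN12L, STAT patterns lie 132 and 86 bases before the start, and the first of them overlaps an interferon-stimulated core at 126. Among 35116 promoters of the same length, 3.57% hold the interferon-stimulated core, 7.66% the STAT pattern and 17.2% the ETS core. The SLFN11 and SLFN12 windows have 18 and 13 CG dinucleotides, against a median of 14 over all promoters and 2 in SLFN12L.

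In mRNA-seq, SLFN11 was near absent from wt and abundant in shDicer cells. The summed estimated counts of its transcripts were 0, 2 and 4 in wt and 3342, 3779 and 4795 in shDicer samples. In CPM these are 0.196 ± 0.205 in wt and 277.9 ± 13.9 in shDicer cells (SD, n = 3). The groups are far apart, and all wt values are within 4 counts of 0. The ratio of the summed counts, corrected for library size, was 1549, with a 95% counting interval from 711.5 to 4222, and the fitted log2 fold change was 10.51 ± 0.222 (SE). Fitted values of genes this close to 0 in wt depend on the small count that edgeR adds to each library. The value was 9.90 without wt replicate 1 and 11.5 without wt replicate 3. In bulk RNA, more cells with SLFN11 and more SLFN11 RNA per cell cannot be told apart.

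SLFN12, an RNase that becomes toxic when bound to the phosphodiesterase PDE3A, followed. It had 0, 1 and 1 counts in wt and 101, 102 and 153 in shDicer samples. The ratio of summed counts was 138.8 with a counting interval from 38.15 to 1151, and the log2 fold change was 6.89 ± 0.391 (SE, edgeR adjusted p = 1.83e-07). It was 6.21 with counts scaled from TPM and 7.62 with protein-coding transcripts alone. SLFN13, which cuts tRNA and rRNA, had 6, 2 and 2 counts in wt and 42, 55 and 62 in shDicer samples. It rose by 3.60 ± 0.363 on the log2 scale (SE, edgeR adjusted p = 1.16e-05). Without wt replicate 1 the rise was 4.24, with counts scaled from TPM it was 5.93, and with protein-coding transcripts alone it was 2.02 and did not pass (adjusted p = 0.00357). The adjusted p of SLFN12 and SLFN13 carry a limit. Near 0 in wt, both genes could enter the test only by being high in shDicer samples, so the values are best read as a description.

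SLFN5, a nuclear family member with a reported role in repressing transcription, had the highest length-corrected mRNA level of the family in wt. Its CPM values were 8.19, 8.01 and 10.8 in wt and 22.1, 29.2 and 31.5 in shDicer samples. Every shDicer sample lay above every wt sample, and the log2 fold change was 1.62 ± 0.170 (SE, edgeR adjusted p = 1.46e-05). SLFN12L, a little studied paralog of SLFN12, had 1.62, 0.890 and 1.84 CPM in wt and 1.49, 2.20 and 1.55 in shDicer samples. These groups overlap, and the log2 fold change of 0.27 did not pass the test, with a 95% interval from −0.38 to 0.91 (edgeR adjusted p = 0.514). SLFN14, a ribosome-associated endoribonuclease mainly known from platelets and red cell precursors, had 0 counts in all 6 samples. A count of 3, the limit that a count of 0 allows, is between 0.184 and 0.311 CPM here.

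Apart from SLFN11, SLFN5, SLFN12 and SLFN13 were called higher at the threshold of 0.001 and SLFN12L was not, where 15.6% of the 15090 tested genes were called higher. The same 3 members were higher in every shDicer than in every wt sample, beside 32.8% of all tested genes. Nothing is read from this count, since the tested members passed a filter on low counts, which SLFN12 and SLFN13, near 0 in wt, could pass only through the shDicer samples.

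**Figure D1:**
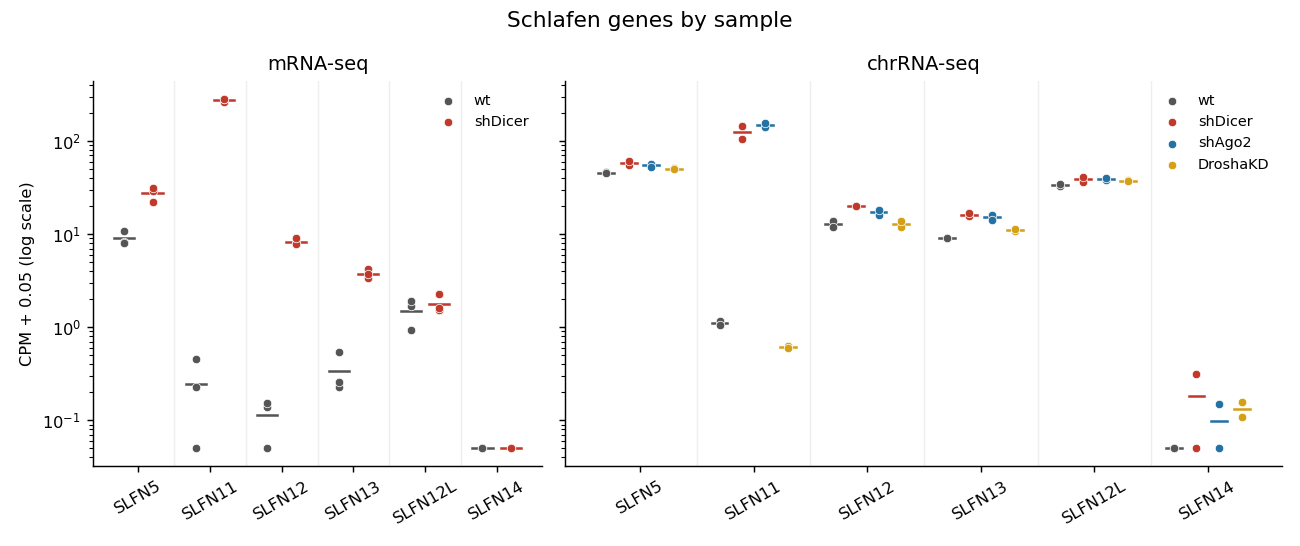
Level of each Schlafen gene in every sample, as CPM plus 0.05 on a log axis, with 1 point per sample and a bar for the group mean, for mRNA-seq on the left and chrRNA-seq on the right. SLFN11 stands at 261.8 to 286 CPM in shDicer mRNA and under 0.41 in wt, while SLFN12L ranges from 0.890 to 2.20 CPM in mRNA-seq with overlapping groups.

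On chromatin of wt cells SLFN5, SLFN12, SLFN12L and SLFN13 had between 8.95 and 46.4 CPM, while SLFN11 was near 1 CPM and SLFN14 at 0. SLFN11 had 19 and 16 counts in wt, 2014 and 2711 in shDicer, 2867 and 2879 in shAgo2, and 10 and 10 in DroshaKD samples. In CPM these were 1.13 and 1.01 in wt, 106 and 143.6 in shDicer, 141 and 157.2 in shAgo2, and 0.571 and 0.544 in DroshaKD. The shDicer and shAgo2 samples were high and overlapped, and wt and DroshaKD were low. The ratio of summed counts to wt was 116.5 for shDicer (counting interval 83.7 to 167.5) and 138.9 for shAgo2 (99.7 to 199.6). The fitted log2 fold changes were 6.86 ± 0.204 and 7.11 ± 0.202 (SE). They were 5.17 and 5.38 with counts scaled from TPM and 8.36 and 8.61 with protein-coding transcripts alone.

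SLFN13 had 8.95 and 8.97 CPM in wt, 15.5 and 16.6 in shDicer and 16.0 and 14.1 in shAgo2 samples. It rose with both knockdowns, by 0.84 ± 0.114 in shDicer (SE, edgeR adjusted p = 0.000118) and by 0.75 ± 0.115 in shAgo2 (adjusted p = 0.000253), or by 1.29 and 1.15 with counts scaled from TPM. Without shAgo2 replicate 1 the difference in shAgo2 was 0.66 and did not pass the threshold of 0.005 (adjusted p = 0.0056).

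SLFN12 had 13.8 and 11.7 CPM in wt, 20.1 and 19.8 in shDicer and 15.9 and 18.2 in shAgo2 samples. It rose in shDicer by 0.64 ± 0.122 (SE, edgeR adjusted p = 0.00133). The call was lost without wt replicate 2 (0.53, adjusted p = 0.0243), without shDicer replicate 1 (0.63, adjusted p = 0.00603) and without shDicer replicate 2 (0.65, adjusted p = 0.00551). In shAgo2 the difference of 0.42 did not pass (adjusted p = 0.0167).

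SLFN5 and SLFN12L did not pass the threshold in either knockdown. SLFN5 had 46.4 and 45.0 CPM in wt, 54.6 and 61.3 in shDicer and 56.4 and 52.7 in shAgo2 samples, with log2 fold changes of 0.34 (edgeR adjusted p = 0.00616) and 0.25 (adjusted p = 0.0272). In shDicer it passed without shDicer replicate 1 (0.42, adjusted p = 0.00353) and with counts scaled from TPM (0.89, adjusted p = 0.000482). SLFN12L had 32.5 and 34.2 CPM in wt, 36.2 and 40.9 in shDicer and 37.8 and 39.5 in shAgo2 samples. Its log2 fold change was 0.21 in both (adjusted p = 0.0802 and 0.0703). SLFN14 had 0 and 0 counts in wt, 0 and 5 in shDicer, 2 and 0 in shAgo2 and 1 and 2 in DroshaKD samples, which is too few for a test.

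Of the 4 tested members other than SLFN11, 2 were called higher in shDicer and 1 in shAgo2. Over the 32874 tested genes, 11.0% were called higher in shDicer and 12.5% in shAgo2. All 4 were higher in both shDicer samples than in both wt samples, as were 34.7% of all genes, and the same held for shAgo2, beside 36.8% of all genes.

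In the libraries labelled DroshaKD none of the 5 tested members passed the threshold of 0.05, at which 1.19% of all genes were called higher and 2.18% lower. At an unadjusted p under 0.05 edgeR gave 1 member, SLFN13, and DESeq2 called none after adjustment. SLFN11 was 0.93 lower on the log2 scale, with a 95% interval from −1.87 to 0.0014 (edgeR adjusted p = 0.316), and rests on 10 counts per DroshaKD sample. Its ratio of summed counts to wt was 0.521, with a counting interval from 0.285 to 0.927 that covers counting error alone. SLFN13 had 10.7 and 11.3 CPM, a difference of 0.29 from wt (95% interval 0.058 to 0.53, adjusted p = 0.205). SLFN5, SLFN12L and SLFN13 were higher in both DroshaKD samples than in both wt samples, beside 24.5% of all genes, while SLFN12 overlapped.

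The shDicer and shAgo2 cells were also compared with each other. They are separate lines, so line and hairpin cannot be told apart here either, and DICER1 RNA did not pass as lower in shDicer chromatin. None of the members passed the threshold of 0.005 used for this contrast, at which 2.71% of all genes were called in either direction. SLFN11 was 0.26 lower in shDicer, with a 95% interval from −0.48 to −0.028 (edgeR adjusted p = 0.208). For SLFN12 the difference was 0.22 (interval −0.0050 to 0.45), for SLFN13 0.09 (−0.11 to 0.30), for SLFN5 0.09 (−0.071 to 0.25) and for SLFN12L −0.0040 (−0.17 to 0.16). The farthest end of these intervals is −0.48, for SLFN11. They are drawn with a normal quantile, which is narrow for 2 samples per group, so they set no firm bound. At an unadjusted p under 0.05 only SLFN11 passed, and DESeq2 called none after adjustment.

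**Figure D2:**
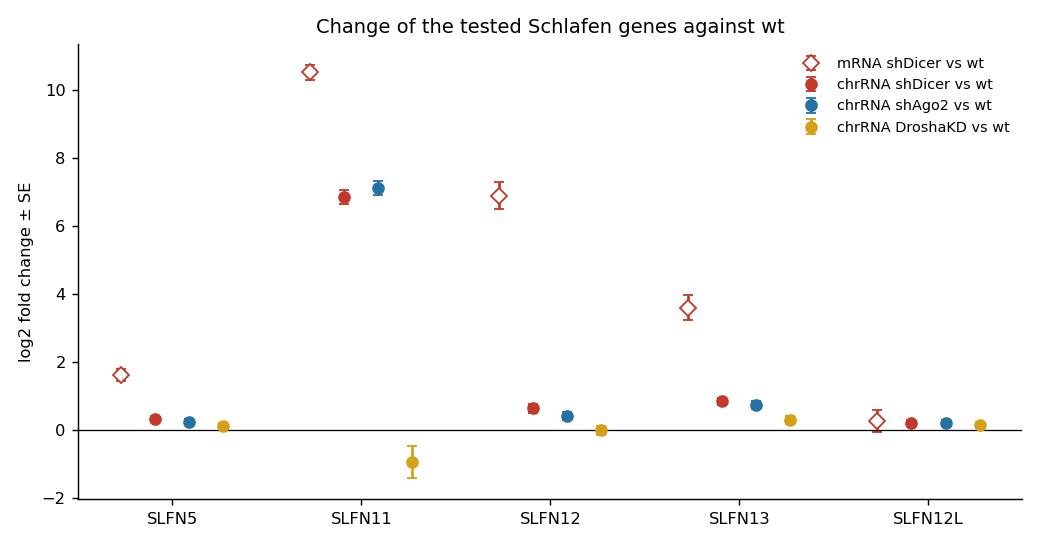
Log2 fold change against wt of the 5 tested Schlafen genes with the SE as error bar, for shDicer in mRNA-seq (open diamonds) and for shDicer, shAgo2 and DroshaKD in chrRNA-seq (circles). SLFN12 reached 6.89 in mRNA-seq and 0.64 on chromatin, whereas SLFN11 was high in both, at 10.51 and 6.86.

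The effect of shDicer differed between the fractions for 3 of the members other than SLFN11. A test of the difference itself, made in 1 fit of the wt and shDicer samples of both fractions, called 2.50% of 31106 genes in either direction. SLFN12 rose by 6.45 ± 0.457 more in mRNA-seq than on chromatin (SE, edgeR adjusted p = 2.42e-07). For SLFN13 the difference was 2.85 ± 0.382 (adjusted p = 0.000149) and for SLFN5 1.36 ± 0.205 (adjusted p = 0.00039), while SLFN12L differed by 0.13 (adjusted p = 0.95). With protein-coding transcripts alone, SLFN12 differed by 7.32 (adjusted p = 5.54e-06), but SLFN13 by 1.31 (adjusted p = 0.0817) and SLFN5 by 1.36 (adjusted p = 0.00203). With counts scaled from TPM, SLFN12 differed by 5.77 (adjusted p = 2.67e-05), SLFN13 by 4.73 (adjusted p = 8.5e-06) and SLFN5 by 0.81 (adjusted p = 0.0445). Without mRNA wt replicate 1, SLFN12 differed by 5.84 and SLFN13 by 3.51. In wt mRNA SLFN12 had 0, 1 and 1 counts and SLFN13 had 6, 2 and 2. The sizes of their differences thus depend on the small count that edgeR adds and are uncertain. The SLFN5 difference also missed 0.001 in 8 of the 10 fits that left out a sample, and that of SLFN13 missed it without mRNA wt replicate 2 (2.58, adjusted p = 0.00129). RNA fraction, duration of doxycycline, library kit and labelled wt line all change together between the data sets and cannot be told apart.

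Compared per transcript length (TPM), the order of the members in mRNA-seq of wt was SLFN5 with 1.07 ± 0.203, SLFN12L with 0.353 ± 0.140, and SLFN13, SLFN11 and SLFN12 each under 0.06 TPM (SD, n = 3). Of these, the last do not differ from each other beyond their spread. In shDicer cells SLFN11 came first with 37.9 ± 3.48 TPM and took 81.8 to 84.8% of the summed TPM of the family. SLFN5 with 2.71 ± 0.655, SLFN13 with 2.62 ± 0.331 and SLFN12 with 1.91 ± 0.638 TPM followed and were not separated by their spread. SLFN12L was last of the detected members with 0.308 ± 0.0068. Of the SLFN13 TPM in shDicer mRNA, 92.4 to 94.1% was on SLFN13-208, a short retained-intron form that shares sequence with SLFN11. In counts SLFN13 was well below SLFN5, with a mean of 3.72 against 27.6 CPM, so its place by TPM rests on that form.

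On chromatin of wt cells SLFN12L was first with 10.5 and 10.9 TPM and held 49.1 to 52.4% of the family's sum. It was followed by SLFN12 with 5.97 and 5.31, SLFN5 with 2.67 and 2.45, SLFN11 with 1.246 and 1.065 and SLFN13 with 1.004 and 1.055 TPM. The last pair were close, with both SLFN11 values just above both SLFN13 values. Of the SLFN11 TPM there, about 96.5% was on the short retained intron SLFN11-209. By summed TPM SLFN12L is thus first on chromatin of wt and second to SLFN5 in mRNA-seq of wt. Its retained-intron form SLFN12L-202 held 50.7 to 53.4% of its TPM on wt chromatin but 17.7 to 19.4% of its counts. In CPM SLFN5 was higher there, with a mean of 45.7 against 33.4 for SLFN12L, so the order depends on the measure. In shDicer and shAgo2 chromatin SLFN11 was first with 37.5 to 49.1 TPM, SLFN12L second with 11.8 to 13.2, and SLFN13 the lowest of the 5 tested members. TPM was divided over transcripts by kallisto and was not compared between fractions.

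The transcripts behind these sums differed. SLFN11 has 13 transcripts in the files. In shDicer mRNA, the protein-coding SLFN11-202 held 48.8 to 60.5% of the gene's counts and SLFN11-201 held 33.5 to 44.7%. Both were also the main forms on chromatin of shDicer and shAgo2 cells, where SLFN11-202 held 46.9 to 65.1% of the counts. The retained-intron form SLFN11-206 took 0.405 to 0.438% of the counts in shDicer mRNA and 4.34 to 6.34% on chromatin of shDicer and shAgo2 cells. The few counts of chromatin in wt were mostly of another form, since 66.8 and 67.1% of them were assigned to the retained intron SLFN11-209, a 553-base transcript.

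For SLFN13, 58.0 to 65.8% of the shDicer mRNA counts were on SLFN13-208, a retained-intron form of 563 bases of which 37.9% of the 31-base subsequences also occur in SLFN11. On chromatin of wt cells the counts were on SLFN13-201, with 57.0 and 66.1%, and SLFN13-210. When protein-coding transcripts alone were summed, the log2 fold change of SLFN12 in shDicer chromatin was 0.58 and did not pass (edgeR adjusted p = 0.00663). Part of the sequence is common within the family. Of all 31-base subsequences, 14.3% of those of SLFN11 and 11.0% of those of SLFN13 occur in other genes, first of all in each other, and 4.15% of those of SLFN12, 13.1% of SLFN12L and 1.47% of SLFN5. Reads from such stretches were divided by kallisto, so the SLFN13 values are uncertain wherever SLFN11 is abundant.

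**Figure D3:**
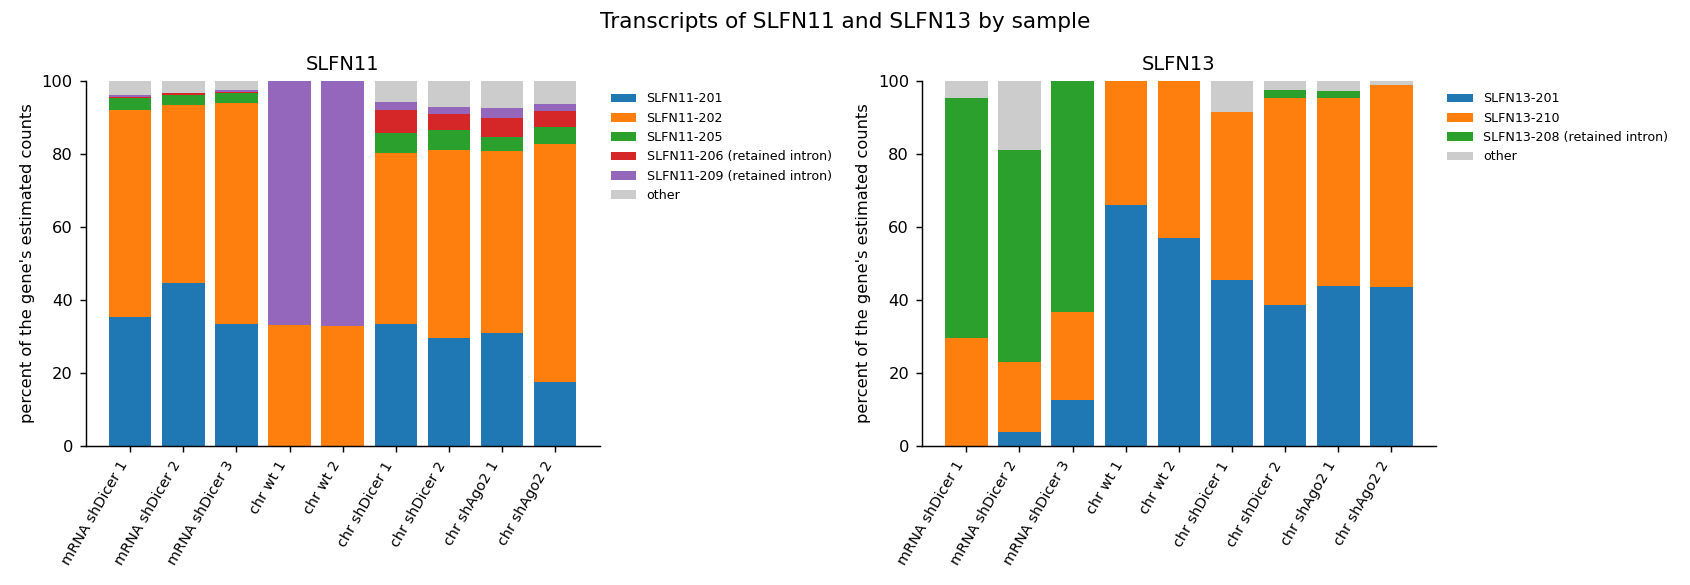
Share of each gene's estimated counts assigned to its transcripts, in percent, for SLFN11 on the left and SLFN13 on the right, with 1 stacked bar per sample. The retained-intron form SLFN13-208 fills 58.0 to 65.8% of the SLFN13 bars in shDicer mRNA, and SLFN11-209 fills about 67% of the SLFN11 bars on chromatin of wt cells.

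The members lie in a stretch of chromosome 17 in which other genes were higher as well. Within 500 kb of the ends of the cluster, 72 other genes were in the files. In mRNA-seq 5 of 14 tested neighbours were called higher in shDicer, and on chromatin 16 of 45 in shDicer and 16 of 45 in shAgo2, beside 15.6%, 11.0% and 12.5% of all tested genes. None was called lower in these contrasts and none was called in DroshaKD. The median log2 fold change of the tested neighbours was 0.61 in mRNA-seq, 0.52 in shDicer and 0.51 in shAgo2 chromatin and 0.04 in DroshaKD, beside 0.011, 0.0072, 0.0028 and 0.0049 over all genes. The counts of neighbours called higher were 3 without any 1 of the wt samples in mRNA-seq. On chromatin without wt replicate 1 or 2 they were 8 or 7 in shDicer and 10 or 7 in shAgo2. Neighbouring genes can overlap and share reads, so they are not independent. Some chromatin neighbours at or near 0 counts in wt could pass the filter on low counts only through the knockdown samples. Such genes could only come out higher against wt, so these counts and medians are a description.

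Among the neighbours called in mRNA-seq, the largest changes were those of CCT6B (1.99), a chaperonin subunit gene, and RASL10B (1.68). AP2B1 (0.80), an adaptor for clathrin, and RFFL (0.75), a ubiquitin ligase, followed (edgeR adjusted p of these genes from 3.67e-06 to 0.000178). On chromatin the largest were at or near 0 counts in wt. ENSG00000267745, a long non-coding RNA, had 0 and 0 counts in wt, 17 and 15 in shDicer and 7 and 17 in shAgo2. The pseudogene ENSG00000267102 had 0 and 0 in wt, 15 and 8 in shDicer and 15 and 10 in shAgo2. Both lie on the minus strand between SLFN11 and SLFN12, their midpoints 34.5 and 36.2 kb upstream of the SLFN11 start, at positions 35406684 to 35409768 and 35409602 to 35410228. Against a floor of 3 counts per library, ENSG00000267745 was at least 4.60-fold higher in shDicer and at least 3.46-fold in shAgo2, and ENSG00000267102 at least 3.30-fold and 3.49-fold. In mRNA-seq these genes were also at 0 in wt, with 11, 16 and 10 and with 14, 8 and 18 counts in shDicer samples.

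Farther away, GAS2L2, 375.2 kb upstream of the SLFN11 start, had 5 and 7 counts in wt, 64 and 53 in shDicer and 56 and 61 in shAgo2 (log2 fold changes 3.05 and 3.02). C17orf50 had 1 and 0 counts in wt, 27 and 25 in shDicer and 49 and 51 in shAgo2, with count ratios of 44.9 (counting interval 7.71 to 1807) and 84.6 (14.8 to 3374). ENSG00000271392 had 0 and 1 counts in wt and 14 and 18 in shAgo2, a ratio of 27.1 (4.52 to 1102). GAS2L2 and C17orf50 were higher in both knockdown lines and had 8, 9 and 5, 6 counts in DroshaKD.

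The chromatin calls of the family depend on this level of the neighbourhood. When the median of the 50 nearest tested genes, about 0.49 to 0.51 in shDicer and 0.47 to 0.51 in shAgo2, was used as an offset, none of the 4 tested members other than SLFN11 passed on chromatin. SLFN12 was then 0.15 and SLFN13 0.36 above the offset in shDicer (edgeR adjusted p = 0.371 and 0.0332), and SLFN13 0.28 in shAgo2 (adjusted p = 0.0794). In mRNA-seq the offset was 0.17 to 0.22, and SLFN5, SLFN12 and SLFN13 still passed. This offset is not equivalent to that on chromatin. Only 14 neighbours within 500 kb were tested in mRNA-seq, with a median of 0.61, so the 50 nearest genes reached beyond this stretch. The chromatin offset may be raised by neighbours that passed the filter only through the knockdown samples.

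**Figure D4:**
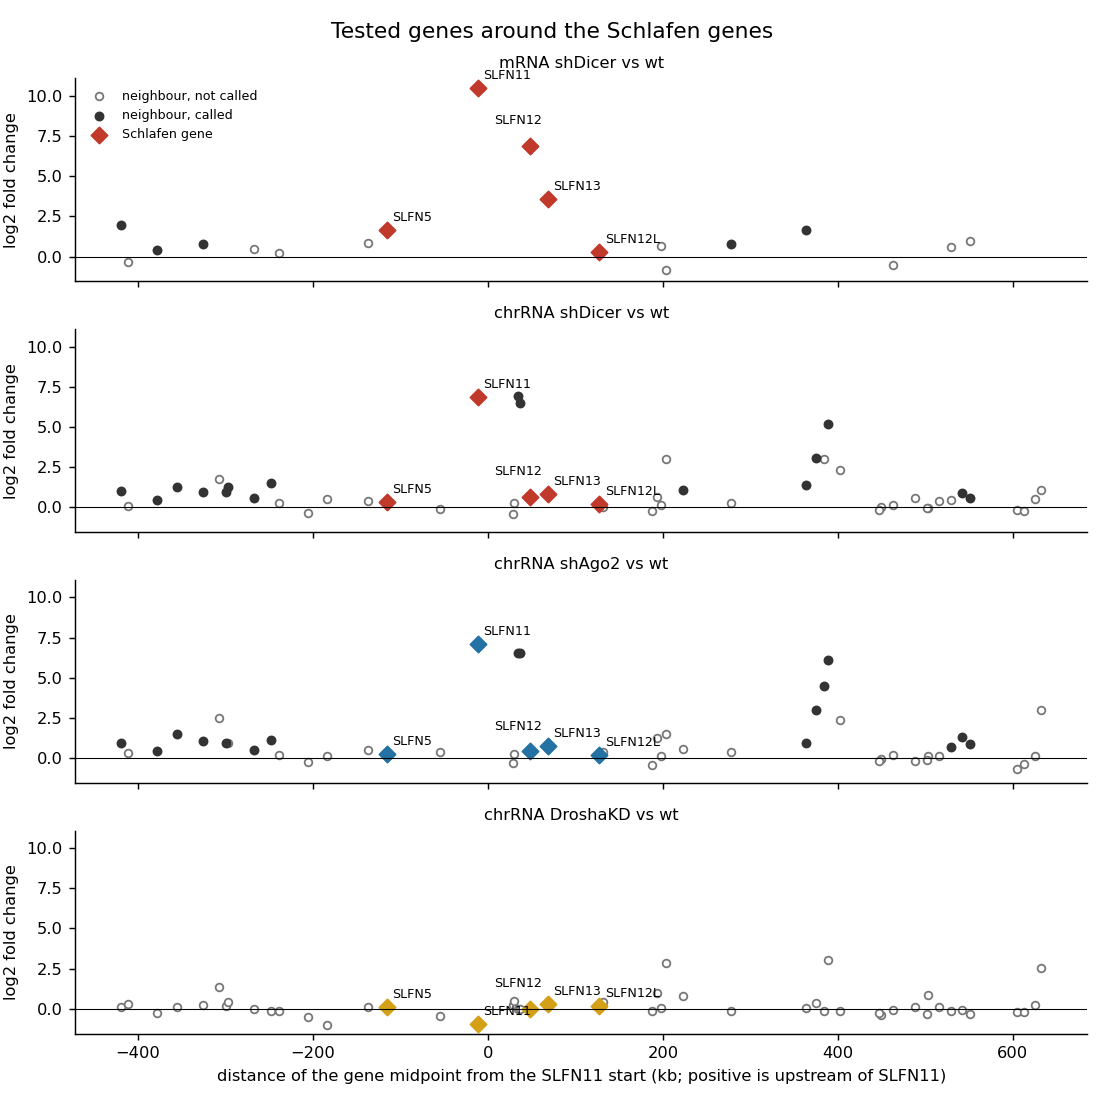
Log2 fold change against wt of every tested gene around the cluster, by the distance of the gene's midpoint from the SLFN11 start in kb, with Schlafen genes as diamonds, called neighbours filled and the others open, in 1 panel per contrast. In shDicer and shAgo2 chromatin 16 of 45 neighbours are filled and all lie above 0, and in DroshaKD none is filled.

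Genes that accompany the Schlafen family in interferon responses were taken as a list of 43. In shDicer mRNA, 13 of 29 tested genes rose, beside 15.6% of all genes, and none fell, with a median of 1.06. The largest were MX1 (2.65), an antiviral GTPase, and IFITM1 (2.20), a membrane protein that blocks viral entry, and the smallest USP18 (0.73), which removes ISG15, and EIF2AK2 (0.46), the kinase PKR. On chromatin of shDicer cells 10 of 42 rose, beside 11.0% of all genes, and none fell, with a median of 0.14. Without either wt replicate the count was 6. IFIH1 (4.48), the RNA sensor MDA5, and SAMD9 (3.29), which like the Schlafen proteins acts on tRNA and translation, changed most, and MX1 (0.56) and IRF1 (0.53) least.

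In shAgo2 chromatin 9 rose, beside 12.5% of all genes, and 2 fell, with a median of 0.23. IFI16, a DNA sensor, was at 0 in wt and at least 9.78-fold higher in shAgo2, and IFIH1 rose by 4.16. STAT2 (−0.50) and IRF9 (−0.67), subunits of the factor that interferon activates, fell, and 1 gene fell without any 1 of the wt or shAgo2 samples. None of the 42 was called in DroshaKD, and without either shDicer sample, which shares the estimate of spread, 2 fell there. The list was chosen with results known, so nothing particular to it follows.

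The partners of SLFN11 at replication forks and of SLFN12 were a list of 21 genes, of which more fell than rose in each contrast. In shDicer mRNA 7 of 20 tested fell, beside 14.2% of all genes, and 3 rose, beside 15.6%. MCM4 (−1.13), a subunit of the replicative helicase, and CUL4B (−0.78), a scaffold of ubiquitin ligases, fell most, while CDT1 (1.28), which loads that helicase and which SLFN11 is known to help degrade, and MCM7 (0.56) rose most. On chromatin 12 of 21 fell in shDicer, beside 10.5% of all genes, led by CDC45 (−0.89) and MCM2 (−0.88), with RPA1 (−0.51) and RPA2 (−0.53) the smallest called. In shAgo2 8 of 21 fell, beside 12.1% of all genes, with MCM2 (−0.87) and DDB1 (−0.74) the largest. In DroshaKD 3 of 21 fell, MCM2 (−0.69), MCM7 (−0.49) and RPA1 (−0.32), beside 2.18% of all genes. These counts moved when samples were left out. Without any 1 of the wt samples none rose in mRNA, and without chromatin wt replicate 2 the numbers that fell were 6 in shDicer, 2 in shAgo2 and 0 in DroshaKD. In shAgo2 they were 2 without shAgo2 replicate 1 and 3 without shAgo2 replicate 2. In DroshaKD they were 0 without wt replicate 1 or DroshaKD replicate 2, 5 without DroshaKD replicate 1, 6 without either shDicer sample and 1 without either shAgo2 sample. The medians of the tested genes were −0.31, −0.53, −0.32 and −0.17 in these 4 contrasts.

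Known or proposed regulators of SLFN11, 19 genes with 3 in common with the interferon list, were also examined. HDAC1, a histone deacetylase, fell by 1.32 in shDicer mRNA, by 1.06 in shDicer and by 1.11 in shAgo2 chromatin. EED, a subunit of the Polycomb complex that places H3K27 methylation on SLFN11 in other cells, fell by 0.99, 0.75 and 0.67, and its partner EZH2 fell by 0.68 in shDicer mRNA. In shDicer mRNA edgeR called 3 of 18 regulators lower, beside 14.2% of all genes. It called 0 higher, or 1 without shDicer replicate 1, while DESeq2 called 4 higher. On chromatin of shDicer cells 3 of 19 rose and 7 fell, beside 11.0% and 10.5% of all genes. In shAgo2 chromatin 1 rose and 9 fell, among them IRF9, beside 12.5% and 12.1% of all genes. ERG, an ETS factor, had 1 count in wt and 68 in shDicer and 20 in shAgo2, with ratios of 58.7 (counting interval 10.2 to 2352) and 16.9 (2.71 to 701.2). FLI1, an ETS factor reported to activate SLFN11, rose by 0.53 in shDicer, and DNMT3A, a DNA methyltransferase, by 0.40. In DroshaKD 2 of 19 fell, UHRF1 (−0.46) and DNMT1 (−0.36), which maintain DNA methylation, beside 2.18% of all genes. In shDicer chromatin 1 rose and 3 fell without wt replicate 1, wt replicate 2 or shDicer replicate 1. In shAgo2 none rose without any 1 of the wt, shDicer or shAgo2 samples, and 4 fell without wt replicate 2 or shAgo2 replicate 1 and 5 without shAgo2 replicate 2. In DroshaKD none fell without either wt sample, 5 without either shDicer sample and 1 without either shAgo2 sample or DroshaKD replicate 2. The parts these genes have in the values of SLFN11 were not tested.

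**Figure D5:**
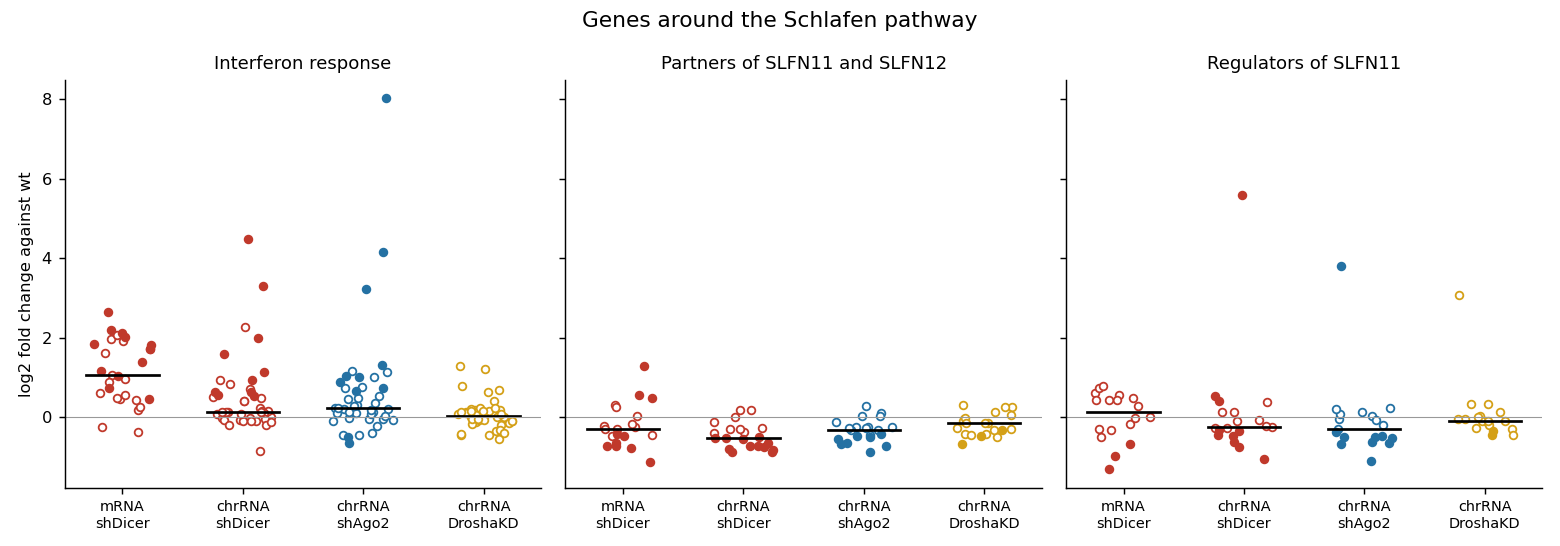
Log2 fold change against wt of the tested genes of 3 lists, with 1 point per gene, filled where called, and a black bar for the median, in the 4 contrasts against wt. Interferon response genes in shDicer mRNA have a median of 1.06 with 13 filled points, all above 0, and the partners of SLFN11 on shDicer chromatin have 12 filled points, all below 0.

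PEG10, RIOX1, EPM2AIP1 and LCP1 were among the 5 genes whose profile across all 14 samples was most like that of SLFN11. Likeness was measured over 14950 genes as the root-mean-square difference of log2 CPM relative to the wt mean of the fraction. It was 1.05 for PEG10, an imprinted retrotransposon-derived gene, 1.29 for RIOX1, 1.41 for EPM2AIP1 and 1.43 for LCP1, an actin-bundling protein of leukocytes, beside a median of 5.87 over all genes. PEG10 was 8.04, 7.69 and 8.11 above wt on the log2 scale in shDicer mRNA and shDicer and shAgo2 chromatin, and differed by −0.26 in DroshaKD. The corresponding values of SLFN11 on this scale were 9.80, 6.71, 6.98 and −0.82. These 4 genes lie on chromosomes 7, 14, 3 and 13, away from the cluster, and were selected for the likeness, so it has no test.

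Since Schlafen genes are abundant in leukocytes, 14 leukocyte markers were summed. They gave 0.528 to 0.799 TPM in shDicer and 0.840 to 1.09 in wt mRNA, and 14.1 to 17.8 in shDicer, 14.7 to 15.5 in shAgo2 and 20.7 to 23.5 in wt chromatin, with CD2 and CD3D at 0 in every sample. In mRNA-seq 1 of the 14 could be tested and did not pass. On chromatin 9 were tested, of which 2 were called lower in shDicer and 3 in shAgo2, beside 10.5% and 12.1% of all genes, and none higher. Among 10 fibroblast and endothelial markers none passed the filter in mRNA-seq, and 1 of 8 tested was called higher in shDicer and 1 in shAgo2 chromatin, beside 11.0% and 12.5% of all genes. Of 6 genes that mark HEK293, 1 rose and 1 fell among 4 tested in shDicer mRNA, beside 15.6% and 14.2% of all genes. On chromatin, with all 6 tested, 2 rose and 1 fell in shDicer, 1 rose and 3 fell in shAgo2, and 1 fell in DroshaKD. Of all genes, 11.0% rose and 10.5% fell in shDicer, 12.5% rose and 12.1% fell in shAgo2, and 2.18% fell in DroshaKD. NEFL rose in shDicer mRNA (4.77 on the log2 scale) and in shDicer (3.73) and shAgo2 chromatin (2.91), and PAX2 in shDicer chromatin (0.94). NEFM fell in the same samples (−3.94, −3.28 and −4.71) and in DroshaKD (−1.07), and LHX1 (−2.31) and WT1 (−0.52) fell in shAgo2 chromatin. The part of such differences between the cells in the Schlafen values was not tested.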

How the data were processed

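RNA-seq of 14 samples was analysed, 6 of mRNA-seq and 8 of chrRNA-seq; small RNA-seq of 6 samples was not analysed here. The authors quantified reads with kallisto against human cDNA and non-coding RNA, so introns outside annotated transcripts are not measured. The expected counts deposited per transcript carry no normalization and can be fractional, since shared reads are divided; the deposited TPM values are scaled by effective length. Effective lengths were used here only for the alternative with counts scaled from TPM. The labels name polyA RNA for mRNA-seq, while the methods describe a stranded total RNA kit after ribosomal depletion.

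Transcripts were assigned to genes by identifier with GENCODE release 44 (193697 of 217082 matched, carrying 93.4 to 94.8% of the counts of a sample). Counts were summed per gene and rounded. edgeR 4.0.16 in R 4.3.3 (filterByExpr, TMM, quasi-likelihood F-test, Benjamini-Hochberg adjustment over 15090 or 32874 genes) was fitted once per fraction with a term per group. Thresholds on the adjusted p were 0.001 for mRNA-seq, 0.005 for shDicer and shAgo2 and 0.05 for DroshaKD, as in the study. CPM (counts scaled to a common library size) use TMM factors. The standard error is the log2 fold change divided by the root of its F statistic. The 95% intervals are drawn from it with a normal quantile, which is narrow for so few samples. Counting intervals are exact binomial, and they and the floor of 3 counts cover counting error alone, because PCR copies cannot be told from separate molecules here. Shared sequence was counted as 31-base subsequences of the GENCODE transcripts.

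The members, gene lists and tests were chosen with earlier results of these data known. Named genes are the members, the targets of the knockdowns, up to 4 called neighbours of largest change per contrast, for each list the called genes at either end (2 each) and the 5 genes most like SLFN11, of which 1 is not reported here. The test of the difference between fractions was added after seeing the data. Alternatives were DESeq2 1.42.0, other normalizations, no filter, protein-coding transcripts only, other thresholds, a replicate block, a neighbourhood offset and leaving out each sample.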

Additional observations from a re-analysis of the deposited data

Results flagged for a closer look

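The effect of shDicer differed between mRNA-seq and chrRNA-seq for 3 Schlafen genes other than SLFN11 by a test of the difference itself with edgeR. SLFN11 was chosen for its rise and is left out here. The difference in log2 fold change, mRNA-seq minus chrRNA-seq, was 6.45 for SLFN12 (6.89 against 0.64, edgeR adjusted p = 2.42e-07), and it passed 0.001 in all 10 fits that left out a sample. It was 2.85 for SLFN13 (3.60 against 0.84, adjusted p = 0.000149), where 1 of 10 such fits did not pass. For SLFN5 it was 1.36 (1.62 against 0.34, adjusted p = 0.00039), where 8 of 10 did not pass. All 3 shDicer samples of mRNA-seq and both of chrRNA-seq lay above wt for each of these genes. SLFN12 and SLFN13 were near 0 counts in wt mRNA, so the sizes of their differences depend on the small count that edgeR adds and are uncertain. With protein-coding transcripts alone, the differences of SLFN13 and SLFN5 did not pass. Most SLFN13 counts in shDicer mRNA were on a retained-intron form that shares sequence with SLFN11. The labelled wt line, the time in doxycycline and the library kit change with the fraction and cannot be told apart from it.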

How the results depend on the processing

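Counts of Schlafen genes here include SLFN11, which was chosen for its rise. In mRNA-seq they also include SLFN12 and SLFN13, which passed the filter only through the shDicer samples, so nothing is read from these counts. In the main fits 15.6% of all tested genes were called higher in shDicer mRNA. On chromatin these shares were 11.0% in shDicer, 12.5% in shAgo2 and 1.19% in DroshaKD. There were 4 Schlafen calls in mRNA-seq in each of the 6 fits that left out a sample, and DESeq2 gave the same counts of Schlafen calls as edgeR in all 5 contrasts. Counts of Schlafen genes called higher were 2 to 3 in shDicer and 1 to 2 in shAgo2 chromatin when samples were left out, 1 in each with an absolute log2 fold change above 1, 1 in each with the neighbourhood offset, and 4 in shAgo2 at an adjusted p under 0.05. A replicate block left 4, 3, 2, 0 and 0 Schlafen genes called higher in the 5 contrasts. In the groups compared, same-numbered samples did not deviate together (correlations of their deviations 0.0455 to 0.0812 in mRNA-seq and −0.074 to 0.0279 in chrRNA-seq), so the numbers were not taken as pairs.

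With an absolute log2 fold change above 1, the calls higher and lower among the partners were 1 and 1 in shDicer mRNA, and those lower were 0 in shDicer, shAgo2 and DroshaKD chromatin. Regulators called lower were then 1 in shDicer mRNA, 1 in shDicer, 1 in shAgo2 and 0 in DroshaKD chromatin, and 1 was higher in shDicer chromatin. Neighbours called higher were 2, 10 and 9 in shDicer mRNA and shDicer and shAgo2 chromatin, and interferon genes called higher were 5 in shDicer and lower 0 in shAgo2 chromatin. DESeq2 called 4 regulators higher in shDicer mRNA and 0 in shAgo2 chromatin.

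When samples were left out, in the order shDicer mRNA and shDicer, shAgo2 and DroshaKD chromatin, the partners called higher were 0 to 3 in mRNA, and those called lower 5 to 10, 6 to 12, 2 to 9 and 0 to 6. Regulators called higher were 0 to 1, 1 to 3, 0 to 1 and 0 to 1, and those lower 2 to 3, 3 to 7, 4 to 9 and 0 to 5. Neighbours called higher were 3 to 5, 7 to 17, 7 to 16 and 0 to 1. Interferon genes called higher were 10 to 15, 6 to 12, 6 to 10 and 0 to 0, and those lower 0 to 2 in DroshaKD and 1 to 3 in shAgo2.

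Signs changed only for differences that were not called. SLFN12 in DroshaKD was 0.0486 with library size only, 0.0117 with counts scaled from TPM, 0.0141 with protein-coding transcripts and from −0.12 to 0.12 with samples left out. SLFN12L in shDicer against shAgo2 was 0.000967 with library size only, 0.0019 without a filter, 0.0024 with unmatched transcripts, 0.0630 with protein-coding transcripts and from −0.0938 to 0.0827 with samples left out. With the neighbourhood offset SLFN5 was −0.17 and SLFN12L −0.28 in shDicer, and SLFN5 −0.26, SLFN12 −0.0521 and SLFN12L −0.26 in shAgo2. The SLFN12L difference between fractions was −0.0237 with counts scaled from TPM and from −0.13 to 0.31 with samples left out. The cause of these changes was not tested. SLFN5 in shDicer chromatin passed 0.005 with library size only (0.38, adjusted p = 0.00283).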
